A study of Zea mays with 6 samples.

Results

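The na1, na2 and brd1 genes encode enzymes of brassinosteroid synthesis and are known in maize as dwarf loci. They were chosen by their function and by their B73 RefGen_v4 gene identifiers, with no use of measured values, and make up 3 of the 45855 genes in each table. The identifiers are Zm00001d042843 for na1 (nana plant1), Zm00001d014887 for na2 (nana plant2) and Zm00001d033180 for brd1, also called lil1. RNA sequencing with selection of polyadenylated RNA was performed on seedlings of maize (Zea mays) labelled as coleoptile stage, when the sheath that covers the first leaves is present. The samples were 3 wild-type and 3 Fdl1-/- biological replicates. The mutants are labelled as homozygous for lesions of FDL1 (fused leaves1), which encodes a MYB transcription factor of cuticle deposition, and the labels name neither the allele, the inbred background nor the number of seedlings in a sample. No age in days, treatment or shared transgene is given for either group.

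Brassinosteroids are steroid hormones that plants make from campesterol, a membrane sterol, and that promote cell elongation. They are perceived at the cell surface by receptor kinases of the BRI1 type, and in Arabidopsis the hormone lowers transcription of several of its own synthesis genes. The na2 product, of the DWF1 type, acts early, in the formation of campesterol. The na1 product, of the DET2 type, is a steroid reductase that acts in the middle of the pathway. The brd1 product is a cytochrome P450, the brassinosteroid C-6 oxidase of the last steps, and the lil1 allele of this locus has been studied for growth and drought response. Maize plants that lack any of these functions are dwarfed.

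Library totals ran from 26807205 to 36123679 expected counts, which are RSEM estimates of the reads of each gene. Wild-type replicate 1 lay apart from the other wild-type libraries, with a mean Pearson correlation of 0.944 across genes with the libraries of its own group, where the other libraries lay at 0.956 to 0.977. The locus taken as FDL1, Zm00001d022227, measured 4.82 ± 0.816 CPM in wild-type libraries and 3.95 ± 0.376 CPM in mutant libraries (SD, n = 3). The difference at this locus did not pass the test (log2 fold change -0.28, edgeR adjusted p 0.651), so the level of the mutated gene does not separate the genotypes here. No table used here pairs that identifier with the name FDL1, and it was recalled from published work. Genome coordinates of the build and sequences of the genes were not used here. The deposited tables list the genes at gene numbers 5176 for brd1, 20496 for na1 and 24128 for na2. That order does not follow the gene identifiers and gives no distance between the loci.

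Transcripts of all of these brassinosteroid genes were present in every library. For none of them was a difference between Fdl1-/- and wild-type seedlings detected beyond the spread between replicates. The early gene na2 was abundant, while brd1 and na1 were expressed at moderate levels. In TPM, the length-corrected share of all transcripts in a library, na2 had 279 ± 34.9, brd1 had 17.2 ± 5.32 and na1 had 6.26 ± 1.71 over the 6 libraries (SD, n = 6). This order held within each library. The ranges over libraries, 4.79 to 9.57 TPM for na1, 10.1 to 22.4 TPM for brd1 and 244 to 344 TPM for na2, did not overlap. Between na1 and brd1 the gap was narrow, since wild-type replicate 1 had 9.57 and 10.14 TPM. The counting errors there were 6.19% for na1 and 5.77% for brd1, so their order in that library is not settled. In CPM, which leaves out transcript length, the ranges of these genes overlapped, with na1 up to 9.94 and brd1 down to 9.26. Among the 31923 to 32686 genes with a TPM above 0 in a library, na2 stood at the 97.9th to 98.6th percentile. The percentile was 58.6 to 74.5 for brd1 and 46.0 to 57.4 for na1. Of the TPM summed over the genes, na2 took 90.9% to 93.3% in a library.

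**Figure D1:**
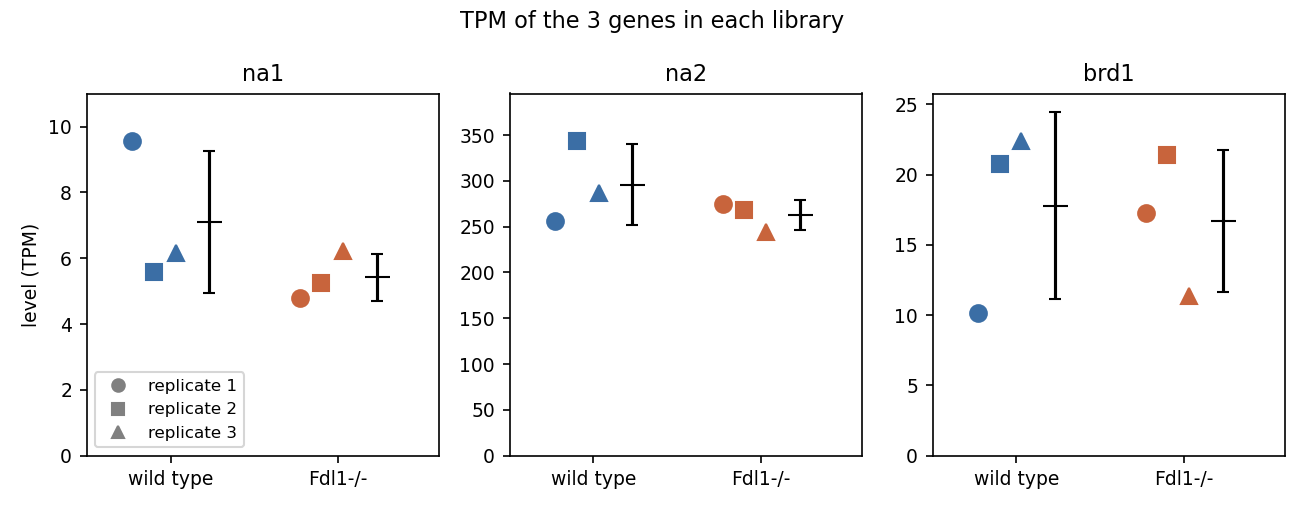
TPM of na1, na2 and brd1 in each library (vertical axes start at 0 and differ between panels). Symbols are single libraries, and the dash with its bar is the group mean with 1 SD (n = 3). The groups overlap for each gene, and wild-type replicate 1 is the highest library for na1, at 9.57 TPM, and the lowest for brd1, at 10.14 TPM.

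For na2, the gene of the DWF1-type reductase that leads to campesterol, the TPM was 256, 344 and 287 in wild-type replicates 1, 2 and 3. The mutant replicates had 275, 269 and 244 TPM. Wild-type replicate 2 was highest and mutant replicate 3 lowest, and wild-type replicate 1 lay within the mutant range. On the CPM scale, where counts are scaled to a common library size by TMM, the wild-type level was 431 ± 53.5 and the mutant level 375 ± 24.1 (SD, n = 3). The log2 fold change of the mutant over wild type was -0.20 (SE 0.13, edgeR quasi-likelihood adjusted p 0.559). The 95% interval of this difference ran from -0.52 to 0.11, so the data allow a mutant level of 0.700 to 1.08 times the wild-type level. Without wild-type replicate 2, its highest library, the log2 fold change of na2 was -0.095. With 10684 to 17378 expected counts in a library, the counting error of na2 was 0.759% to 0.967%, far below the spread of 12.4% between wild-type libraries and 6.42% between mutant libraries (coefficient of variation of CPM).

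For na1, the gene of the DET2-type reductase, the TPM was 9.57, 5.58 and 6.16 in wild-type replicates 1, 2 and 3. The mutant replicates had 4.79, 5.26 and 6.21 TPM. Wild-type replicate 1 stood above all others, and the remaining 5 libraries of both genotypes mixed, with 5.60 ± 0.604 TPM (SD, n = 5). In CPM, na1 averaged 7.00 ± 2.55 over the wild-type and 5.14 ± 0.642 over the mutant libraries (SD, n = 3). The log2 fold change of na1 was -0.44 (SE 0.29, 95% interval -1.12 to 0.23, edgeR adjusted p 0.551). This is a mutant level of 0.736 times the wild-type level, with an interval of 0.461 to 1.17. Without wild-type replicate 1 the log2 fold change was -0.11 (95% interval -0.56 to 0.35, edgeR adjusted p 0.812). The excess in that library was beyond counting error. Its 261 counts gave 9.94 CPM (95% Poisson interval 8.77 to 11.2), and the other libraries, with 131 to 199 counts, gave 4.56 to 5.83 CPM. The highest upper bound among those libraries was 6.70 CPM, and such intervals cover counting error only.

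For brd1, the gene of the C-6 oxidase, the TPM was 10.1, 20.8 and 22.4 in wild-type replicates 1, 2 and 3. The mutant replicates had 17.2, 21.4 and 11.4 TPM. Each genotype held 1 library well below its other libraries, and the groups overlapped over nearly their whole range. In CPM, brd1 averaged 15.1 ± 3.29 over the wild-type and 13.4 ± 4.08 over the mutant libraries (SD, n = 3). The log2 fold change of brd1 was -0.18 (SE 0.27, 95% interval -0.81 to 0.46, edgeR adjusted p 0.842). The interval allows a mutant level of 0.572 to 1.37 times the wild-type level. The direction of this small difference turned without mutant replicate 3, where the log2 fold change was 0.033. Dropping mutant replicate 2 gave -0.41, and dropping wild-type replicates 1, 2 or 3 gave -0.34, -0.12 or -0.041. The spread of brd1 among replicates was beyond counting error as well. Mutant replicate 3 had 9.26 CPM (95% Poisson interval 8.27 to 10.3) and mutant replicate 2 had 17.4 CPM (95% Poisson interval 16.1 to 18.8). These intervals leave out the error made when RSEM divides reads between genes, which may add to the spread of brd1 and was not measured.

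The comparison asks whether brassinosteroid synthesis genes differ between Fdl1-/- and wild-type seedlings. Of these 3 genes, 0 had an adjusted p under 0.05 in edgeR and 0 had an unadjusted p under 0.05. Among all genes, edgeR called 699 of 26098 tested (2.68%), with 439 (1.68%) higher and 260 (0.996%) lower in the mutant. An unadjusted p under 0.05 was reached by 15.8% of tested genes. DESeq2 called 0 of the 3 genes and 1997 of 26038 tested genes (7.67%). Likewise limma-voom called 0 of the 3 and 719 of 26098 (2.76%), and neither tool gave any of the 3 an unadjusted p under 0.05. With shares this low, 0 of 3 is near the background. The groups overlapped in CPM for each of them, as they did for most tested genes, of which 21.9% did not overlap. All 3 fold changes were below 0, with a median log2 fold change of -0.20, where 54.8% of tested genes were below 0 and the median over all of them was -0.033. Differences at least as large in size as that of na1 were held by 29.6% of tested genes, and 52.5% and 56.8% reached the size of those of na2 and brd1. In bulk seedlings, fewer cells that express a gene and less RNA per cell cannot be told apart.

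**Figure D2:**
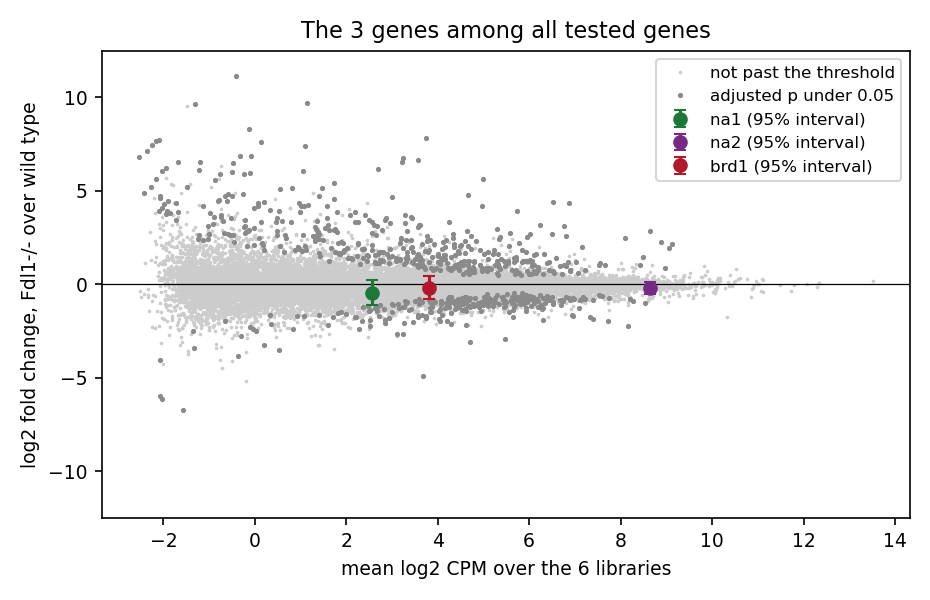
Log2 fold change of Fdl1-/- over wild type against the mean log2 CPM for all 26098 tested genes. Dark points have an adjusted p under 0.05, and the coloured points are na1, na2 and brd1 with their 95% intervals, all of which include 0.

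Calls and spread were also counted among genes of like abundance. Within 0.25 log2 CPM of na1, 42 of 1417 genes were called (2.96%). Around na2, 5 of 131 genes were called (3.82%), and around brd1, 62 of 1868 (3.32%). The smallest log2 fold change in size among the called genes was 1.11 around na1, 0.990 around na2 and 0.751 around brd1. Changes as small as those estimated for na1, na2 and brd1 were thus not called at these levels of abundance. The biological coefficient of variation, edgeR's estimate of the spread between replicates, was 0.288 for na1, 0.140 for na2 and 0.257 for brd1. Among genes of like abundance the median was 0.266 for na1, 0.150 for na2 and 0.189 for brd1, and brd1 was more variable than 81.5% of such genes.

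The balance between the genes was compared within each library, where no scaling between libraries enters. Transcripts of na2 outnumbered those of na1 by 26.8, 61.6 and 46.6 times in wild-type replicates 1, 2 and 3, in TPM. In the mutant replicates the ratio of na2 to na1 was 57.5, 51.1 and 39.4. Wild-type replicate 1 was the lowest of the 6, and the groups overlapped. The ratio of brd1 to na1 was 1.06, 3.73 and 3.64 in the wild-type replicates and 3.60, 4.07 and 1.83 in the mutant replicates. In 4 of the 6 libraries brd1 thus stood at 3.60 to 4.07 times na1, while wild-type replicate 1 held both at almost equal levels. The ratio of na2 to brd1 ran from 12.5 to 25.3 over all libraries. The mean log2 ratio of na1 to na2 was -5.41 ± 0.611 over the wild-type and -5.61 ± 0.279 over the mutant libraries (SD, n = 3). For na1 to brd1 it was -1.28 ± 1.04 and -1.58 ± 0.620, and for na2 to brd1 it was 4.13 ± 0.496 and 4.02 ± 0.389. For the difference between genotypes, each of the 3 pairs had p = 0.7 in a two-sided exact permutation test, and 0.7 after Benjamini-Hochberg adjustment over the pairs. The smallest p that 3 against 3 samples allow is 0.1. Without wild-type replicate 1 the differences in mean log2 ratio, mutant less wild type, turned from -0.20 to 0.14 for na1 to na2, from -0.30 to 0.30 for na1 to brd1 and from -0.11 to 0.16 for na2 to brd1. The last of these also turned without mutant replicate 2, to 0.082. With CPM in place of TPM, which leaves out the estimated lengths, the differences were -0.20 for na1 to na2, -0.20 for na1 to brd1 and -0.00016 for na2 to brd1.

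**Figure D3:**
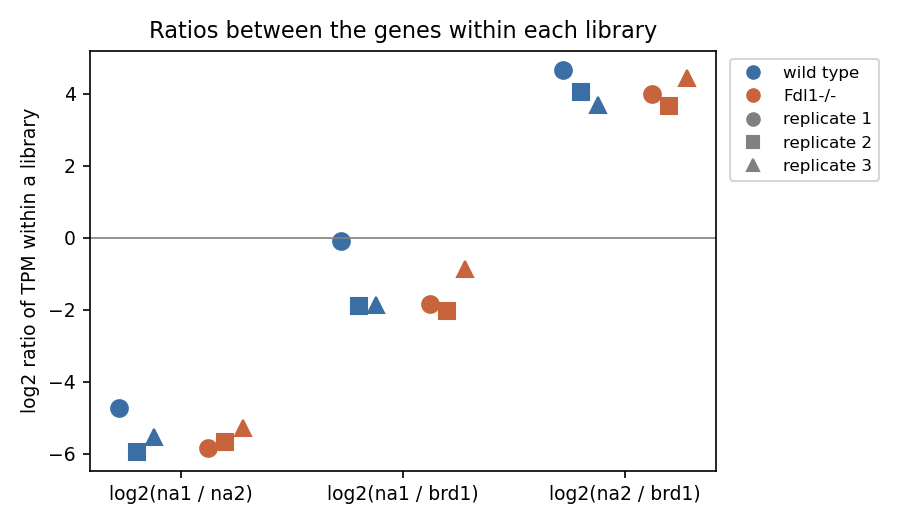
Log2 ratio of TPM between pairs of the genes within each library, coloured by genotype, with replicates as symbols. The log2 ratio of na1 to brd1 is -0.083 in wild-type replicate 1 and between -2.03 and -0.87 in the other libraries.

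The deposited tables also give the estimated mean transcript length of each gene, which weights its annotated transcripts by their estimated shares and does not depend on the level itself. The na1 gene has 1 annotated transcript, of 1344 nt, so its length is fixed. For na2, with 6 annotated transcripts, the wild-type libraries averaged 1991 ± 31.6 nt and the mutant libraries 1994 ± 18.2 nt (SD, n = 3, two-sided exact permutation p = 0.8). For brd1, with 2 annotated transcripts, it was 1453, 1100 and 1157 nt in wild-type replicates 1, 2 and 3 and 1121, 1148 and 1170 nt in the mutant replicates. Wild-type replicate 1 was thus 26.6% above the median of the other libraries. For the difference in brd1 length between genotypes the two-sided exact permutation p was 0.8. With 3 against 3 samples that test cannot go below 0.1, for na2 as for brd1, so it could not have passed a threshold of 0.05. Of 11735 genes with several annotated transcripts and a mean of at least 100 expected counts, 1.59% deviated as far or farther in that library, in either direction. For na2 the same library was 2.71% above the median of the others, and 38.3% of those genes deviated as far. The share for brd1 describes the library that stood out for this gene and is not a test. Since TPM divides by this length, the low brd1 value of wild-type replicate 1 depends on the scale. It was 0.469 times the mean of the other wild-type libraries in TPM and 0.672 times in CPM. A longer estimated length is a shift in estimated transcript shares, and no transcript need have grown.

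**Figure D4:**
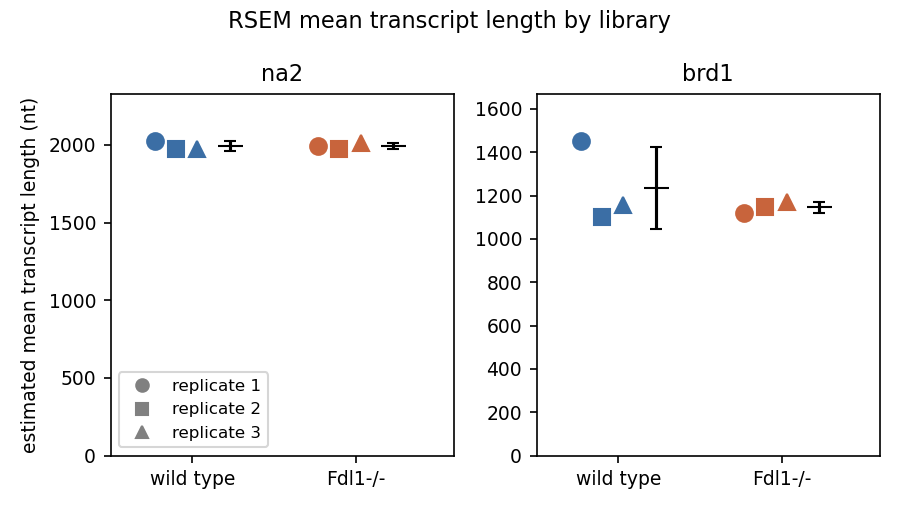
Estimated mean transcript length of na2 and brd1 in nt in each library (axes start at 0), with the group mean and 1 SD (n = 3). For brd1, wild-type replicate 1 lies at 1453 nt and the other libraries at 1100 to 1170 nt.

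Expected counts of na1 and na2 were whole numbers, within 0.005, in 6 of 6 libraries. For brd1 they were whole in 0 of 6, which occurs where RSEM divides reads between genes. Its values are therefore uncertain by the part of the reads that it shares with similar sequence, and which gene shares them was not tested. Over all tested genes, 31.7% had whole counts in every library.

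Genes with the most similar profile were sought by the Pearson correlation of log2 CPM over the 6 libraries, among 22558 genes with a mean of at least 1 CPM. The correlations describe genes picked as the highest of many, and the points share library and depth. For na1 they were Zm00001d026668 (r = 0.999) and Zm00001d043181 (r = 0.997), neither of which is given a name in the files. Both were highest in wild-type replicate 1, with 113 CPM against 72.6 to 83.5 CPM in the other libraries for the first and 7.88 CPM against 0.905 to 1.61 CPM for the second. Without that library r was 0.991 and 0.983 over 5 libraries. Those 5 libraries also entered the choice of the genes, so these values are no independent check. For na2 they were Zm00001d025939 (r = 0.997) and Zm00001d018384 (r = 0.996), both highest in wild-type replicate 2, at 58.7 and 111 CPM. Their correlations were not recomputed without wild-type replicate 2. For brd1 they were Zm00001d034813 (r = 0.995) and Zm00001d026350 (r = 0.988). The first followed the order of brd1 over a much narrower range, 17.1 to 18.9 CPM, against 9.26 to 17.7 CPM for brd1. Over the 6 libraries a correlation of at least 0.95 was held by 556 genes with na1, 130 with na2 and 25 with brd1. The count for na1 includes wild-type replicate 1, where na1 was highest, and was not repeated without that library.

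The fold changes were then recomputed with other scalings, filters, tests and sets of libraries. An adjusted p under 0.05 was reached by 0 of the 3 genes under each of 18 alternatives, and the lowest adjusted p was 0.403 for na1, 0.361 for na2 and 0.521 for brd1.

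**Figure D5:**
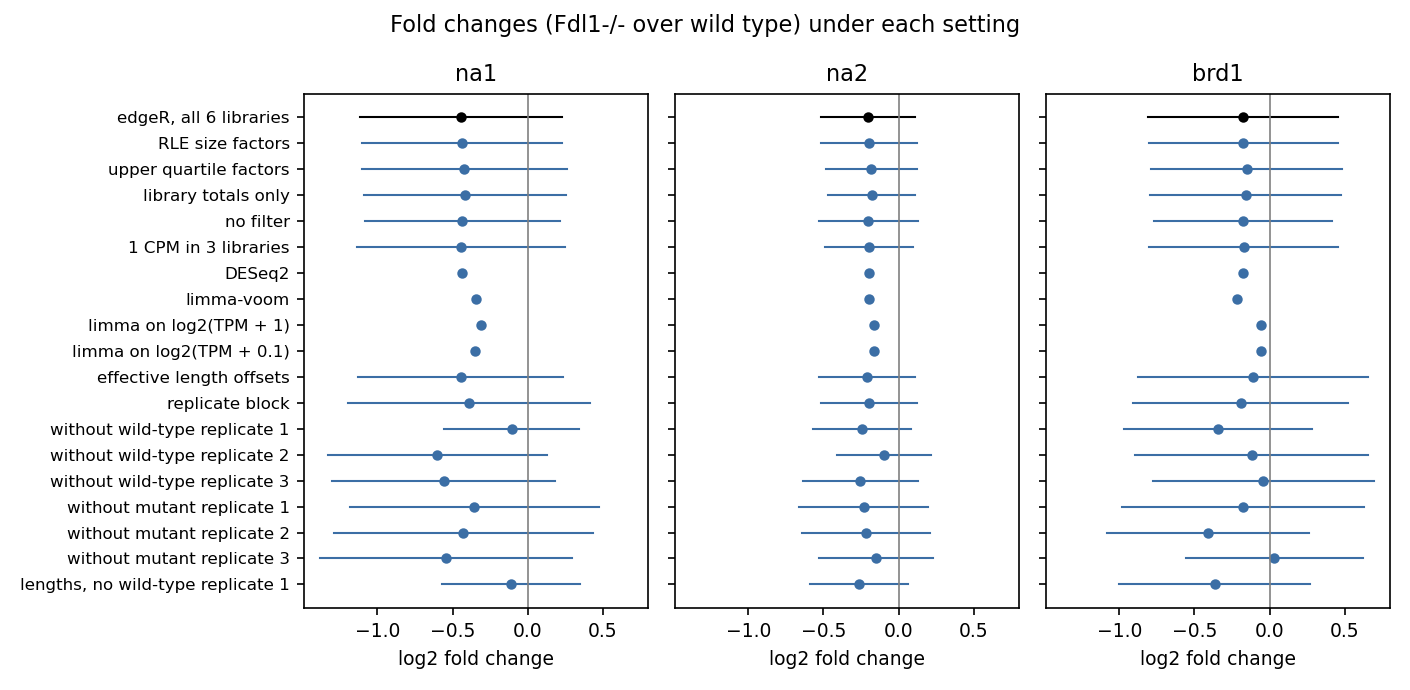
Log2 fold changes of Fdl1-/- over wild type for na1, na2 and brd1 under each setting, with 95% intervals for edgeR fits (other tools are drawn as points alone). The drawn intervals include 0 throughout, and leaving out wild-type replicate 1 moves na1 from -0.44 to -0.11.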

How the data were processed

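The deposited tables are RSEM gene results, 1 for each sample per the file headers, with expected counts, TPM and mean transcript length. Expected counts, as deposited, are estimates in which shared reads are divided, and the authors' TPM values are scaled to effective length and library total. Per the labels' protocols, RNA was prepared with a PureLink kit and a stranded TruSeq mRNA kit. Per the submitters' processing notes the build was B73 RefGen_v4 and the tools were Bowtie2, RSEM, DESeq2 and limma, with no version or role given.

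Gene identifiers were read from transcript identifiers. Expected counts were rounded and tested over all genes in R 4.3.3 with edgeR 4.0.16 (filterByExpr with minimum count 10 and total 15, TMM, two-sided quasi-likelihood test, Benjamini-Hochberg adjustment, threshold 0.05, no replicate block). Standard errors come from the fold change and its F statistic. Log-CPM used a prior count of 2. The fit was also run on counts simulated from its own model, which checks its working and not its assumptions for these data. Single values were compared by exact permutation. Alternatives used DESeq2 1.42.0 and limma 3.58.1. Similar genes were the 2 with the highest correlation per gene. The genes were picked by function and not by a measured value, but, like the settings, when earlier results of these data were already known. RefSeq's gene table (NAM-5.0) holds 0 of the 43789 identifiers beginning Zm00001d, so no list of other brassinosteroid genes was described. The tissue label was not checked against markers for the same reason.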

Additional observations from a re-analysis of the deposited data

How the results depend on the processing

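Under each of the 18 alternatives na1 and na2 kept a log2 fold change below 0 and brd1 did so under 17, all without passing the threshold. Leaving out 1 library gave -0.60 to -0.11 for na1, -0.26 to -0.095 for na2 and -0.41 to 0.033 for brd1. Other scalings, filters and tests gave -0.45 to -0.31, -0.21 to -0.16 and -0.22 to -0.055. Wild-type replicate 1 left out together with effective length offsets, chosen after the data were seen, gave -0.11, -0.26 and -0.36. Deviations from the group means correlated at -0.22, 0.13 and -0.18 between samples of one number. Between samples of unlike number they correlated at -0.18 to 0.27. These values show no pairing by number, but they are tied to each other through the group means and do not decide the question. With a replicate block the log2 fold changes were -0.39, -0.20 and -0.19, and the block changed none of these 3 calls. The count of genes called over the whole table was 699, against 1997 with DESeq2 (1066 higher, 931 lower), 122 with the replicate block (105 and 17) and 128 to 837 when 1 library was left out. It was 149 without wild-type replicate 2 and 128, 184 and 193 without mutant replicates 1, 2 and 3, and the cause was not tested. Leaving out 1 library moved the difference in log2 TPM ratio within -0.46 to 0.14 for na1 to na2, -0.66 to 0.30 for na1 to brd1 and -0.33 to 0.16 for na2 to brd1. In transcript length it moved the difference within -6.47 to 20.9 nt for na2 and -158 to 18.0 nt for brd1, and na1, whose length is fixed, had none to recompute. With 3 samples a group the width of the 95% intervals, more than depth, limits what can be said of na2, whose counting error was under 1%.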
